A study of Homo sapiens with 2 samples.

Results

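FASN, the gene for fatty acid synthase, carried 20 of the 1489 peaks (1.34%) of PQBP1 on RNA that were listed for HEY cells, a human ovarian cancer line. The members were all peaks assigned to FASN in the list, with no peak left out. FASN was chosen by its own measured values, namely its high number of peaks and their close arrangement in this list, so its peak number, spacing, class and read values are given below as descriptions with no test. The study carried out SpyCLIP-seq, in which ultraviolet light crosslinks a tagged protein to RNA in living cells and the RNA fragments that remain on the purified protein are sequenced. HEY cells overexpressing PQBP1 with FLAG and Spy tags were irradiated at 400 mJ per cm2 and their nuclei were isolated before lysis. There were 1 Input library, with no antibody, and 1 IP library, pulled down by FLAG, both from the same tagged cells. Only peaks called in the IP library were used, and Input values were not analysed here. Since each group held 1 library, there was no replicate and no comparison between groups, and the PQBP1 seen here was an overexpressed, tagged form.

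Fatty acid synthase is the large cytosolic enzyme that builds palmitate from acetyl-CoA and malonyl-CoA with electrons from NADPH, and it carries all of its catalytic domains and an acyl carrier domain on a single polypeptide. Its gene is a well known target of the transcription factor SREBP-1, and many tumours, ovarian carcinomas among them, express it strongly. PQBP1 (polyglutamine binding protein 1) is a nuclear protein that binds components of the spliceosome. Nuclei hold transcripts that still carry introns beside spliced ones.

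The 718 genes of the list carried 39952 reads in peaks, of which 407 (1.02%) lay on FASN. The read value of a peak is the number of reads per bin of 200 nt, averaged over the bins of the peak. The total number of sequenced reads is unknown, and a typical peak rested on few reads, with a median of 11 reads per bin over the list (quartiles 9 and 14). Intervals beside single read values below are exact Poisson 95% intervals and intervals beside shares are Wilson 95% intervals. Both cover counting error only. The study's methods name no molecular identifiers, and some reads may be copies of the same molecule. The presence of a peak was also looked up for marker genes of the cell line: 1 of 8 epithelial and ovarian cancer markers had a peak (KRT8, 2 peaks), 2 of 3 mesenchymal markers (VIM with 5 and FN1 with 4) and 0 of 2 blood markers. Over all protein-coding genes 3.24% had a peak, so 0 of 2 is uninformative, and a peak is not a measure of expression.

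The FASN peaks lay on chromosome 17, on the minus strand of the annotation, and all were assigned to the transcript NM_004104.4. From the 3′-most to the 5′-most peak they spanned chr17:80036401-80052200. These positions are those of the deposited list and belong to a build that was not GRCh38, since 0 of the 20 peaks overlapped the gene on GRCh38 (chr17:82078338-82098294, ENSG00000169710.9). They were not converted, no genome of their build was used, and no peak sequence is therefore given. In the direction of transcription the peaks are numbered from 1, the 5′-most, to 20, the 3′-most.

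At the 5′ end of the span, exon and intron peaks alternated. Peak 1 (chr17:80052001-80052200) was an intron peak of 9 reads per bin (4.12 to 17.1). Peak 2 (chr17:80051001-80051200) was an exon peak of 14 (7.65 to 23.5), and peak 3 (chr17:80050401-80050600) was an intron peak of 13 (6.92 to 22.2). Peak 4 (chr17:80049001-80049400) was an exon peak of 2 bins with 13.5 reads per bin (8.90 to 19.6). None of these 4 peaks stood apart from its neighbours beyond counting error. Then came the longest run of intron peaks, which also held the lowest read values of the gene. Peaks 5 (chr17:80048001-80048200) and 6 (chr17:80047601-80047800) had 8 reads per bin each (3.45 to 15.8), and peak 7 (chr17:80046601-80047000) had 12 over 2 bins (7.69 to 17.9).

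The middle of the span held the highest and the widest peak. Peak 8 (chr17:80046001-80046200) was an exon peak of 20 reads (12.2 to 30.9), peak 9 (chr17:80045601-80045800) an exon peak of 11 (5.49 to 19.7) and peak 10 (chr17:80045201-80045400) an exon peak of 18 (10.7 to 28.4), with 1 empty bin between each and the next. After an intron peak of 10 reads, peak 11 (chr17:80044001-80044200; 4.80 to 18.4), peak 12 (chr17:80043401-80043600) reached 29 reads (19.4 to 41.6), the highest value on FASN. Peaks 11 and 12 were the only neighbours along the gene whose intervals did not overlap, and the interval of peak 12 lay wholly above those of 7 of the other FASN peaks. Peak 13 (chr17:80042801-80043200) was an exon peak of 16.5 reads per bin over 2 bins (11.4 to 23.2). Peak 14 (chr17:80041601-80042600) was the widest, 1000 nt or 5 bins, classed as intron, with 14.8 reads per bin (11.6 to 18.6) and 74 reads in all. It alone held about as many reads as peaks 12, 13 and 15 together, which had 29, 33 and 13.

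Towards the 3′ end only exonic classes were listed. Peak 15 (chr17:80040801-80041000) had 13 reads (6.92 to 22.2) and peak 16 (chr17:80039801-80040000) had 14 (7.65 to 23.5). Peak 17 (chr17:80038201-80038600) had 19 reads per bin over 2 bins (13.4 to 26.1), and peak 18 (chr17:80037201-80037400) had 10 (4.80 to 18.4). These 4 exon peaks formed the longest run of that class. The span closed with peak 19 (chr17:80036801-80037000) and peak 20 (chr17:80036401-80036600), both of the 3′ UTR class and both with 17 reads (9.90 to 27.2). When all 20 peaks were put in order of read value, 0 of the intervals of neighbours in that order were separate. Such an order puts the closest values side by side, so little else was possible and no conclusion is drawn from it.

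**Figure D1:**
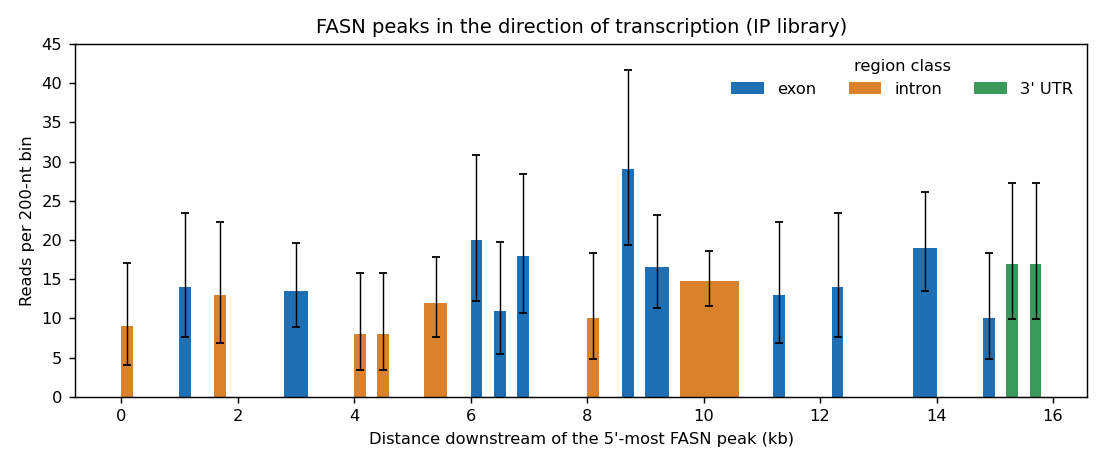
Read value of each FASN peak (y axis, reads per 200-nt bin) against its distance downstream of the 5′-most peak (x axis, kb), coloured by region class. Bars are as wide as the peaks and lines are exact Poisson 95% intervals. Peak 12, at 29 reads, stands highest, intron peaks stop at the 1000-nt peak, and the last 2 bars are of the 3′ UTR class.

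Along the transcript the class of the peaks changed often, with 11 runs of a single class over 20 peaks (5 of exon, 5 of intron and a last one of 3′ UTR). The first 10 peaks were 5 exon and 5 intron peaks, and the last 10 were 6 exon, 2 intron and 2 3′ UTR peaks. The read value was higher in the 3′ group, with a median of 15.65 reads per bin (10 to 29) against 12.5 (8 to 20) in the 5′ group, and the ranges overlapped widely. Pooled over bins this was 255 reads in 16 bins (15.9 per bin) against 152 reads in 12 bins (12.7 per bin).

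The peaks were closely spaced, and the stretches between them varied in length. The 28 bins in peaks covered 5600 nt of the 15800-nt span, or 35.4%. The 19 stretches between neighbouring peaks had a median of 400 nt and a mean of 537 nt (SD 334), and ranged from 200 to 1200 nt. A single empty bin of 200 nt separated the neighbours in 7 cases, 400 nt in 3, 600 nt in 2, 800 nt in 4 and 1000 nt in 2. The widest stretch, 1200 nt, lay between peaks 16 and 17. Each length is a multiple of 200 nt because the bins are, so a spacing finer than that cannot be read from the list. Most FASN peaks were narrow, 15 of 1 bin (75%), 4 of 2 bins and 1 of 5 bins. This is not particular to FASN. The share of 1-bin peaks was 85.0% over all other peaks and 75.5% in the other genes with 10 or more peaks.

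By region class FASN had 11 exon peaks (55%, 34.2 to 74.2), 7 intron peaks (35%, 18.1 to 56.7) and 2 peaks of the 3′ UTR (10%, 2.79 to 30.1). There was no peak of the 5′ UTR, stop codon, start site or intergenic class. The reads were divided in nearly the same way as the peaks, with 227 reads (55.8%) in exon peaks, 146 (35.9%) in intron peaks and 34 (8.35%) in the 3′ UTR peaks. By bins the balance was closer, 14 exon and 12 intron bins, because the widest peak was classed as intron.

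Exon peaks had higher read values than intron peaks. The 11 exon peaks ranged from 10 to 29 reads per bin with a median of 14, and the 7 intron peaks ranged from 8 to 14.8 with a median of 10. On the log2 scale the mean was 3.95 (SD 0.43) for exon peaks and 3.38 (SD 0.35) for intron peaks, a difference of 0.57, or 1.49 times, against a pooled SD of 0.40. It was 0.22 among peaks with a p of at most 0.001 and 0.33 with at least 10 reads per bin, limits that took out the lowest intron peaks. The classes overlapped: 5 exon peaks lay above the highest intron peak, 3 intron peaks lay below the lowest exon peak and 1 equalled it. Over the list the median was 11 reads per bin for exon peaks and 9 for intron peaks.

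**Figure D2:**
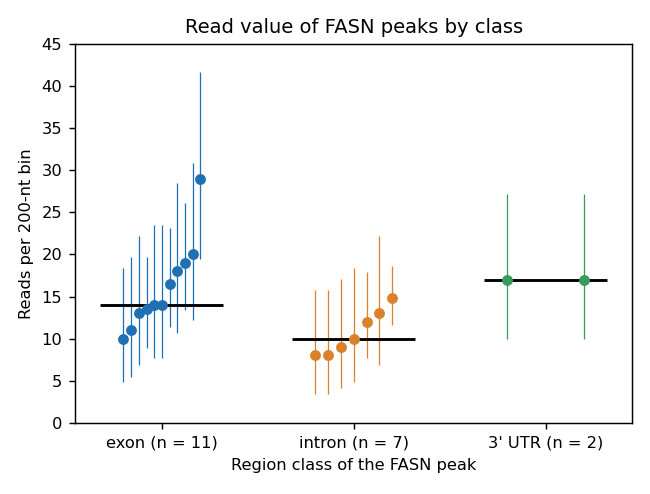
Read value of the 20 FASN peaks (y axis, reads per 200-nt bin) by region class. Points are peaks with exact Poisson 95% intervals and thick lines are class medians (14, 10 and 17). The exon and intron points overlap between 10 and 14.8 reads per bin.

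FASN peaks were on the high side of this list but none was among its tallest. Their quartiles were 10.75, 13.75 and 17 reads per bin (9, 11 and 14 over the list), 14 of the 20 lay above the list median of 11, and 43.5% of all other peaks did so. The list held 51 peaks (3.43%) higher than the highest on FASN. Among the 16 genes with 10 or more peaks the FASN median was the fifth. The 216 peaks of the others had a median of 12.

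The exon and intron classes of FASN have to be read against its structure. The canonical transcript (ENST00000306749.4, GENCODE release 44, used for lengths and not for positions) has 43 exons and 42 introns over 19899 nt, of which 8464 nt (42.5%) are exonic. The median exon is 174 nt and the median intron is 131.5 nt, and 29 exons and 29 introns are shorter than a bin. The longest exon has 943 nt. Long introns are found at the 5′ end, where introns 1 to 3 (1668, 846 and 1548 nt) make up 35.5% of all intronic sequence, while the longest later intron has 770 nt.

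The 5′ end of the gene carried no listed peak. With the lengths of this model, and if the transcript in the list has the same lengths, the 15800-nt span and the 3′ UTR of 808 nt that must hold the last peaks place the first peak 3692 to 4298 nt from the transcript start. Exon 3 ends at 2917 nt and intron 3 at 4465 nt. Exons 1 to 3 and introns 1 and 2, the longest intron among them, then had no peak in the list, and peak 1 began within intron 3. The remaining peaks covered the part of the gene where exons and introns follow each other at short intervals.

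In that part a bin seldom falls in a single class. Of all 200-nt windows downstream of intron 3, 76.2% hold both exonic and intronic sequence, 13.9% are wholly intronic and 9.85% wholly exonic. Of 400-nt windows, 90.3% hold both. A window of 1000 nt always does, with 105 to 943 exonic nt and a median of 531. The widest peak, peak 14, started at least 13292 nt from the 5′ end and was classed as intron. By these lengths it lay among exons 26 to 32, of 120 to 224 nt, where the introns have 80 to 132 nt. Most of its sequence was then exonic, in spite of its class. The class of a FASN peak is thus a label for a window that in most cases also holds the other class, and how the authors' annotation chose between them was not tested.

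Set against the model, 13 of the 20 FASN peaks (65%, 43.3 to 81.9) were exonic, with exon and UTR classes counted together, and 46.7% of the merged gene model is exonic. The peaks were thus 18.3 percentage points above the exonic share of the gene, or 1.39 times, and the interval included the model's share. The difference was 12.8 points when the reference was only the part downstream of intron 3, which is 52.2% exonic, a choice made after seeing the data. The share of all 20 peaks was kept there, although peak 1 began within intron 3 by the lengths above. It turned to -6.65 points when the share of 200-nt windows that touch an exon was the reference, so the side on which FASN falls depends on how a window with both classes is counted.

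The deposited p-values of the FASN peaks ranged from 5.19e-12 (peak 12) to 0.0460 (peak 5). The smallest is the floor of the list and was shared by 62 peaks. At a p of at most 0.001, 14 FASN peaks (70%) remained, with 58.6% of the list, and at 1e-05 7 FASN peaks (35%) remained, with 35.5% of the list. The limit of 0.001 removed mostly intron peaks: 10 of 11 exon, 2 of 7 intron and 2 of 2 3′ UTR peaks passed it. The limit of 1e-05 removed exon peaks as well, and 6 exon, 0 intron and 1 3′ UTR peaks passed. With at least 10 reads per bin, 11 exon, 4 intron and 2 3′ UTR peaks remained. The 7 peaks below 1e-05 were peaks 8, 10, 12, 13, 16, 17 and 19.

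At equal reads, FASN peaks tended to carry larger p-values than peaks of other genes. The 15 FASN peaks of 1 bin were set beside the 1-bin peaks of other genes with exactly the same number of reads. In 13 of the 15, 50% or more of those other peaks had a smaller p, and the median over the 15 was 83.3%. The pattern held in each class, with medians of 80.9% for 8 exon peaks, 77.4% for 5 intron peaks and 93.5% for the 2 3′ UTR peaks. Peak 20, for example, had 17 reads and a p-value of 1.93e-05, and 30 of the 31 other 1-bin peaks of 17 reads had a smaller p, with a median of 4.88e-08. Peak 15 had 13 reads and a p-value of 4.13e-04, and 65 of 67 others were smaller. The exceptions were peak 6 (8 reads, p-value 0.0121, 44 of 124 smaller) and peak 12, where no other outcome was possible, since it and the single other peak of 29 reads were both at the floor of 5.19e-12. Without peak 12 the median was 84.3% over 14 peaks and 83.3% over 7 exon peaks. These p-values are those of the authors' peak caller for 1 library, and how the caller modelled the background was not tested.

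**Figure D3:**
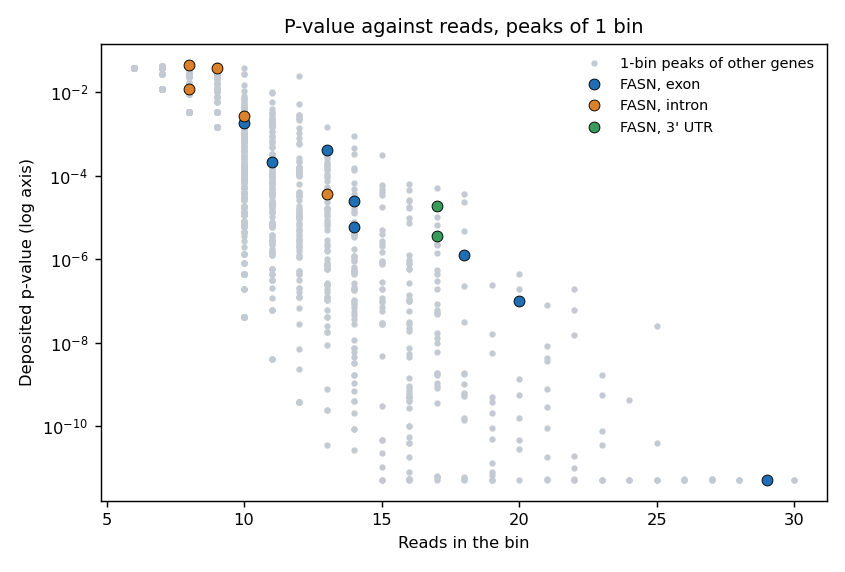
Deposited p-value (y axis, log scale) against reads in the bin (x axis) for peaks of 1 bin, up to 30 reads. Grey points are other genes, with 24 peaks of more than 30 reads left out, and coloured points are the 15 FASN peaks by class. Of the 15 FASN points, 13 have 50% or more of the grey points with the same reads below them.

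The same quantity differed widely among the genes with 10 or more peaks. Its median was 93.2% for AGRN, 85.7% for AHNAK, 84.9% for FLNA, 83.3% for FASN and 80.8% for PLEC. It lay between 35.2% and 50% for MYH9, SRRM2, LTBP3, MACF1, LAMA5, ITPR3 and UBR4. It was lowest for TRIO (12.5%), DST (11.1%), COL1A1 (10.7%) and COL1A2 (0%). FASN was thus among the genes whose peaks had larger p-values at equal reads.

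Besides FASN, 15 genes had 10 or more peaks, with 216 peaks in all. By number of peaks FASN was the fourth of the 16, after LAMA5 (23 peaks: 12 exon, 10 intron, 1 3′ UTR), TRIO (22: 16 exon, 6 intron) and AHNAK (21: 20 exon, 1 3′ UTR). Below it came DST with 18 (12 exon, 6 intron), FLNA with 16 (11 exon, 4 intron, 1 3′ UTR), PLEC with 15 (9 exon, 6 intron), AGRN with 14 (7 exon, 4 intron, 3 3′ UTR) and MACF1 with 13 (11 exon, 2 intron). COL1A1 (2 exon, 7 intron, 2 3′ UTR), COL1A2 (6 exon, 4 intron, 1 3′ UTR), LTBP3 (3 exon, 7 intron, 1 3′ UTR) and SRRM2 (8 exon, 3 intron) had 11 each. ITPR3 (5 exon, 4 intron and 1 at the start site), MYH9 (9 exon, 1 intron) and UBR4 (6 exon, 4 intron) had 10, the lowest number admitted, and 5 genes just below it had 9 (INPPL1, ITGA3, MKI67, PLXNB2 and PRKDC).

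By number of peaks per length of gene or of merged exons FASN ranked first among these 16 genes. Genes with fewer than 10 peaks were not ranked, and a short gene can reach a high density with few peaks. It had 1.00 peak per kb of gene, the highest of the 16, and the next were COL1A1 with 0.627 and FLNA with 0.613, while the median of the others was 0.244. Per kb of merged exons it had 2.15 peaks, again the highest, followed by LAMA5 with 1.61. FASN is among the shortest of these genes, 19.957 kb long, and COL1A1 (17.532 kb) and SRRM2 (19.913 kb) are shorter. Its rank by peak number was thus reached on a gene about as long as those 2, which had 11 peaks each. The rank depends on counting peaks, since adjoining bins count as a single peak: in bins within peaks per kb, a measure chosen after seeing the data, FASN (1.40) was behind SRRM2 (1.91). In reads per kb FASN (20.4) was behind SRRM2 (46.2), and in reads per exonic kb (43.7) behind SRRM2 (70.9) and PLEC (51.0). The rank also depends on the length used. Per kb of the span of its peaks FASN had 1.27, with 20 peaks over 15.8 kb. AHNAK was denser by that length, with 21 peaks over 16.2 kb, a span that was 13.2% of its gene model. In peaks per kb of gene FASN kept the first rank at a p of at most 0.001 (0.702) and with at least 10 reads per bin (0.852). It was the second at 1e-05 (0.351). In these data a gene with more RNA in the nucleus and a gene bound more often per RNA cannot be told apart, since Input values were not analysed here.

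**Figure D4:**
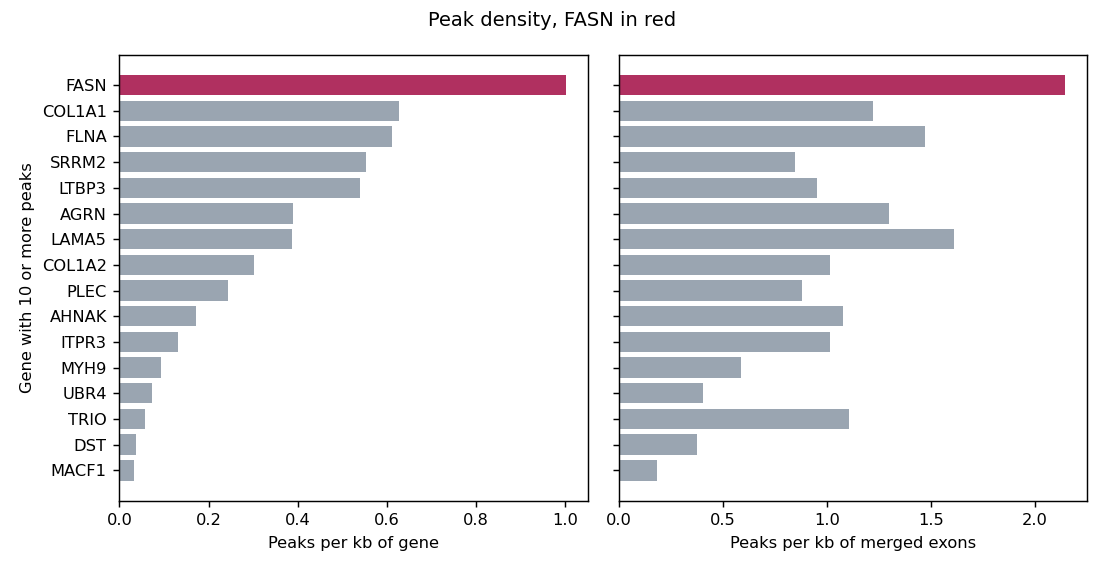
Peaks per kb of gene (left, x axis) and peaks per kb of merged exons (right, x axis) for the 16 genes with 10 or more peaks, in order of the left measure, with FASN in red. FASN has the longest bar in both, 1.00 and 2.15 peaks per kb.

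FASN peaks also had no wide stretch without a peak inside their span. The widest stretch was 1200 nt, or 7.59% of the span, the lowest share of the 16 genes. SRRM2 came next with 7.81%, and the median of the others was 20.9%. In nt the widest stretch was shorter in SRRM2, at 1000 nt. A span with more peaks tends to have a lower share, and peak numbers were not matched. The median stretch of 400 nt was shared with 3 of the genes, and the others ran from 200 nt in AHNAK to 6000 nt in TRIO. Peaks covered 35.4% of the FASN span, with 1.73% in MACF1 and 59.4% in SRRM2 as the extremes. The span took up 79.2% of the gene model, second to ITPR3 with 95.3%, and in AHNAK it was 13.2%.

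In exon and intron balance FASN was close to the middle of these genes. Its exon share of 55% was the tenth of 16, between 18.2% in COL1A1 and 95.2% in AHNAK, and lay near the 63.4% (56.8 to 69.6) of the 216 peaks of the other 15 genes and the 62.6% (60.1 to 65.0) of all other peaks, both within the FASN interval. Its exonic excess over the gene model, 18.3 points, was the thirteenth of 16. The others ran from -20.2 in LTBP3 to 84.1 in AHNAK, with a median of 37.0. Against the canonical transcripts alone FASN was again the thirteenth, with 22.5 points, but others moved: LTBP3 was at 12.0 and COL1A1 at 2.63 points, above 0 in place of below it, PLEC turned to -0.56 and AHNAK fell to 39.3. FASN is a compact gene, and 3 of the 16 have a higher exonic share in the model than its 46.7%. The exon minus intron difference in read value, 0.57 on the log2 scale, was the fifth of the 15 genes with both classes, and ran from -0.40 in COL1A1 to 0.87 in MYH9.

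**Figure D5:**
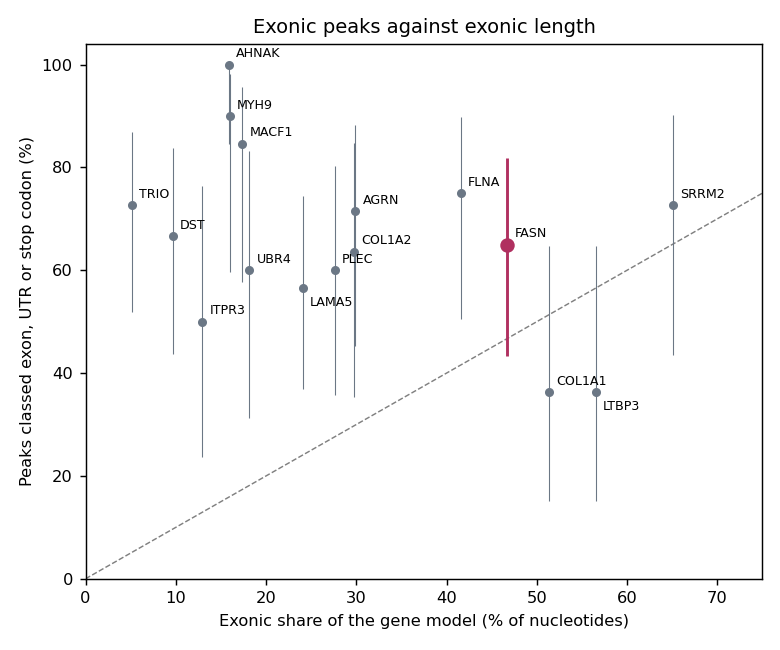
Share of peaks in exonic classes (y axis, %, with Wilson 95% intervals) against the exonic share of the merged gene model (x axis, % of nucleotides) for the 16 genes with 10 or more peaks. The dashed line marks equal shares. FASN (46.7, 65) lies above the line with an interval that crosses it, and COL1A1 and LTBP3 lie below it, which turns when canonical transcripts alone are the reference.

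The genes most like FASN were sought over 4 measures at once (the share of exon peaks, the median reads per bin, the median distance between peaks on a log scale and the share of 1-bin peaks), each as a z-score over the 16 genes. AGRN, which encodes the basement membrane proteoglycan agrin, was nearest (distance 0.784), followed by FLNA, the actin crosslinker filamin A (1.30), and LAMA5, a laminin chain of basement membranes (1.32). COL1A2 came next at 1.66 and UBR4 was the farthest at 3.43.

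Among 49 other genes of lipid metabolism, 5 had a peak (10.2%, 4.44 to 21.8), a higher share than the 3.24% of all protein-coding genes (649 of 20020) that did so. The 5 genes had 7 peaks together, and no gene had more than 3. The list of 49 was chosen with results of these data known, and expression and gene length, which bear on whether a peak can be called, were not matched.

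Of 15 other genes listed for fatty acid synthesis, 2 had a peak, a count to be read against the 3.24% of all protein-coding genes. The 15 include genes for substrate supply, elongation and desaturation, but not all of them act directly before or after FASN. ACLY, which makes cytosolic acetyl-CoA from citrate, had an intron peak of 6 reads (2.20 to 13.1, deposited p-value 0.0387) at chr17:40033601-40033800. SCD, the desaturase that turns the saturated products into monounsaturated fatty acids, had a 5′ UTR peak of 12 reads (6.20 to 21.0, deposited p-value 0.00223) at chr10:102107001-102107200. The acetyl-CoA carboxylases ACACA and ACACB, which make the malonyl-CoA used by FASN, had none.

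Among 12 regulators, SREBF1 alone had peaks, a count too small to set apart from the 3.24% of all protein-coding genes. It encodes SREBP-1, the transcription factor that drives FASN, and it lies on the same chromosome. Its 3 peaks were all of the intron class, with 13 reads at chr17:17719601-17719800 (deposited p-value 6.27e-06), 10 at chr17:17721601-17721800 (deposited p-value 8.38e-07) and 14 per bin over 400 nt at chr17:17722401-17722800 (deposited p-value 3.34e-05). These read values lay within the range of the FASN intron peaks (8 to 14.8). At 10 reads, the SREBF1 peak had a p far below those of the FASN peaks with the same reads (peak 11, 0.00275, and peak 18, 0.00187).

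Of 8 genes that activate or use fatty acids, only ACSL3, an acyl-CoA synthetase, was named. Its peak of 10 reads (deposited p-value 4.28e-08) was classed as intergenic in the list. This count is likewise too small to set apart from the 3.24% of all protein-coding genes. ACLY, SCD, SREBF1 and ACSL3 thus had peaks within or below the range of read values seen on FASN, and none had more than 3 peaks.

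Peaks of other genes near those of FASN were looked up on chromosome 17, and the same was not done for another gene. A single other peak lay within 100 kb of the FASN peaks, 13.4 kb downstream. It was an exon peak of 11 reads on DUS1L, a tRNA dihydrouridine synthase gene on the same strand. On the 5′ side the nearest peak was an intron peak of 10 reads on CSNK1D, the gene of a casein kinase, 155 kb away.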

How the data were processed

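SpyCLIP-seq of tagged PQBP1 in HEY cells gave 1 Input and 1 IP library. Per the study's methods, the authors trimmed reads with Trimmomatic, removed ribosomal reads, aligned with TopHat2 (2.0.13 in the submitters' processing notes), called peaks by Piranha and used HOMER for annotation. The deposited read value is a coverage signal: multiplied by the bins of a peak it was whole in 1489 of 1489 peaks (tolerance 0.01 reads), so it was read as mean reads per 200-nt bin, not scaled to depth. The p-value is as the authors deposited it, with a largest value of 0.0467, and the sources do not say whether it was adjusted. Both are the authors' values for the IP library. Strand is that of the annotation. The methods name the GRCh38 genome, which the positions do not match.

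Peaks named FASN were taken, with positions counted from 1. Gene lengths came from GENCODE release 44, by name only, with all exons of a gene merged or the canonical transcript alone, and 717 of 718 genes were matched to a symbol. Intervals are Wilson and exact Poisson at 95%. No test was made, since each group had 1 library. Named genes were FASN, every lipid gene with a peak (a result for a gene of this list is not reported here), every gene with 10 or more peaks, the 3 most like FASN and genes within 100 kb. The members and lists were chosen with earlier results of these data known. Alternatives were p-value limits of 0.001 and 1e-05, at least 10 reads per bin, joining of peaks at most 200 nt apart, weighting by bins or reads, and other definitions of length, spacing and exonic share. Python 3.11.15 with numpy 2.4.6, pandas 2.3.3, scipy 1.17.1 and matplotlib 3.10.9 was used, and the computations were tested on simulated data.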

Additional observations from a re-analysis of the deposited data

How the results depend on the processing

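Of 45 alternatives over 8 results, 30 left the value within its error or within 1.5 times and 15 did not. At a p of at most 0.001 the exonic excess of FASN was 39.0 points and 2 lipid genes had a peak. At 1e-05 FASN had 7 peaks, an exon share of 85.7%, an exonic excess of 53.3 points, a median distance of 1200 nt between peaks and 0.351 peaks per kb, 2 lipid genes had a peak, and no intron peak was left for the exon minus intron difference. With at least 10 reads per bin 3 lipid genes had a peak. Joining peaks at most 200 nt apart gave 13 peaks, a median distance of 800 nt and 0.651 peaks per kb. The median distance between midpoints was 900 nt, and per kb of merged exons FASN had 2.15 peaks. The exonic excess reversed to -6.65 points against the share of windows that touch an exon. Here the reference itself was raised, since a window with both classes counts as exonic. No paired analysis was possible because Input and IP had 1 library apiece. At 8 to 29 reads per bin, differences between single FASN peaks were mostly not detectable, and no second IP library was there to check a peak against.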
